A study of Mus musculus with 4 samples.

Results

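Chromatin accessibility at 9 genes of the retinoic acid pathway was read from ATAC-seq peak lists of embryonic mouse limbs. The genes were chosen by their place in the pathway, and they are 9 of the 22367 protein-coding genes of the annotation. They fall into synthesis (Aldh1a2, Aldh1a3), breakdown (Cyp26a1, Cyp26b1), nuclear receptors (Rara, Rarb, Rarg) and cytoplasmic binding proteins (Crabp1, Crabp2). A further 18 genes of the pathway, from vitamin A transport to receptor cofactors and targets, were taken as a second list.

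Retinoic acid is a small signal made from vitamin A by retinaldehyde dehydrogenases and cleared by cytochrome P450 enzymes of the CYP26 family. Inside the cell it binds retinoic acid receptors, which sit with RXR partners on direct repeats in DNA and change the transcription of nearby genes, several of which encode parts of the pathway itself. In the limb bud, the trunk side is the source of the signal and CYP26B1 clears it from the growing tip, which is one of the ways in which near and far parts of the limb are told apart.

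The samples were forelimb and hindlimb cells of embryos at stage E11.5, of the strain cross c57bl6.J X 129S6.sv. The mutant embryos carry a stop cassette insertion, a piece of DNA meant to end transcription, in a study of the Maenli long non-coding RNA locus and En1. The others are wild type, and the 2 groups have 2 libraries each. The labels used here do not give the place of the insertion or the number of alleles that carry it, nor whether the libraries come from separate embryos, so a p-value measures only the spread between these libraries. The peak names of both wild-type lists carry 1 shared replicate number, and those of the mutant lists carry 2. Cells were fixed before the Tn5 transposase, which cuts and tags open DNA, was applied.

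Each library has its own list of peak summits, positions of 1 bp with a score. The lists hold 79083 and 107827 summits in stop cassette replicates 1 and 2, and 51701 and 68471 in wild-type replicates 1 and 2, and read depth is unknown. Scores were therefore turned into percentiles within their own list, from the weakest to the strongest summit. With 2 libraries against 2, the exact permutation test of a difference in group means cannot give a p-value under 0.333. Of the marker lists used to check the tissue, limb mesenchyme had a summit within 1 kb of a start in all 4 lists for 7 of 12 genes, Prrx1, Msx1, Twist1, Pitx1, Hoxd13 and Hoxa13 among them, although Tbx5 and Hoxa11 had none in any list. This share is close to the 57.5% of all protein-coding genes, so the count does not set limb mesenchyme apart. The counts were 1 of 7 for ectoderm, 1 of 5 for endothelium, 1 of 5 for blood, 0 of 4 for muscle precursors and 0 of 3 for liver, and 3 of 5 for the neural list (Neurog2, Olig2 and Pax6). An open start does not show that a gene is expressed.

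The DNA element through which retinoic acid receptors are best known to act was searched first, since it shows which of these genes carry the pathway's own binding sequence. The half-site was AGGTCA, or the variant AGTTCA, or the variant GGGTCA, or the variant GGTTCA, read on both strands, as direct repeats with a spacer of 1, 2 or 5 bases (named DR1, DR2 and DR5), and overlapping matches were allowed. DR5 was found within 1 kb of an annotated start in 4 of the 9 genes, namely Rara, Rarb, Rarg and Cyp26a1. Over all 22367 protein-coding genes, 1.19% had a DR5 within that distance. The matches below are written 5′ to 3′ on the strand of the match, with the half-sites in capitals and the spacer in lower case.
Rarb, chr14:17408027-17408043, minus strand: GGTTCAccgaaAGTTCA
Rara, chr11:98821322-98821338, plus strand: AGTTCAgcaagAGTTCA
Cyp26a1, chr19:37772266-37772282, minus strand: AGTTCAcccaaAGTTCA
Rarg, chr15:102081248-102081264, minus strand: GGTTCAaagtgAGGTCA

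All coordinates are of mm9, and the bases are those of the reference genome of that build and not of the embryos' own DNA. The Rarg match overlaps a DR1 match at 102081259 to 102081271 on the same strand. The Rarb match lay 57 to 41 bp before the start of Rarb-202, the shorter coding transcript, and the Cyp26a1 match 32 to 16 bp before the start of that gene. The Rara match lay 404 to 388 bp before the start of Rara-004, a transcript that begins inside the gene, and the Rarg match 487 to 471 bp before Rarg-003, which is annotated as non-coding. A match is a description of the letters and no evidence of binding.

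The accessible DNA around these matches differed. At Rarb, the nearest summit lay 139 and 99 bp from the middle of the element in stop cassette replicates 1 and 2, and 44 and 34 bp from it in wild-type replicates 1 and 2. These summits ranked at the 75.6, 86.5, 82.4 and 83.3 percentiles. At Cyp26a1 the element had a summit within 1 kb in wild-type replicate 2 alone, 137 bp away and at the 27.7 percentile. At Rara the nearest summits lay 353, 269 and 390 bp away in both stop cassette lists and wild-type replicate 2, and none was within 1 kb in wild-type replicate 1. They ranked at the 78.2, 9.23 and 58.5 percentiles. At Rarg no list had a summit within 1 kb of the element. Of the 4 elements, the one at Rarb thus had a summit within 139 bp in all 4 lists, and the one at Rarg had none within 1 kb.

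For the 3 elements with a summit within 1 kb, 150 bases upstream of the start are given to show the element in place, in the direction of transcription, with the half-sites in capitals. In the Cyp26a1 run the element reads on the opposite strand, so the capitals there are the reverse complement of the half-sites. None of these runs contains an annotated UTR base.
Rarb, chr14:17407987-17408136, minus strand: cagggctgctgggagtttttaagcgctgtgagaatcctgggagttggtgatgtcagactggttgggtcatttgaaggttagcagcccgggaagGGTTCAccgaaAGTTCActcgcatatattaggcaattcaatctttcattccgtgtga
Cyp26a1, chr19:37772148-37772297, plus strand: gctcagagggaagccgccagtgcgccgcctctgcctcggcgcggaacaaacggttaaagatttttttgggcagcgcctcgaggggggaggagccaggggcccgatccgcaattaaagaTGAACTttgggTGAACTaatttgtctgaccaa
Rara, chr11:98821276-98821425, plus strand: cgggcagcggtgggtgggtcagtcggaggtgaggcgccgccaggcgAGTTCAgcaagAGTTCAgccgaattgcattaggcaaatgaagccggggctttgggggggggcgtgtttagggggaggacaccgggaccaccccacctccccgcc

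With every annotated start counted, the receptors and binding proteins had a summit at a start in every list, and the enzymes that make and break down retinoic acid did not. A summit within 1 kb of a start was present in all 4 lists for 3 of 3 receptors and 2 of 2 binding proteins, but for 0 of 2 synthesis genes and 0 of 2 breakdown genes. This makes 5 of 9 genes, where 57.5% of all protein-coding genes had a start summit in all 4 lists, so the total is near the background. The split by role depended on the setting. With all lists cut to 51701 summits the count was 3 of 9, the receptors, with Crabp1 in 2 lists and Crabp2 in 3 (background 54.7%). With scores of at least 5.83 it was 2 of 9, Rara and Rarb, with Rarg in 3 lists, Crabp1 in 1 and Crabp2 in 0 (background 48.8%). With the start of the gene body alone it was 2 of 9, Crabp1 and Crabp2, with Rara in 1 list, Rarb in 0 and Rarg in 3. The background for this start is given for 4 classes of genes, split by CpG content as described below. Genes in all 4 lists numbered 121 of 5589, 1842 of 5587, 4849 of 5590 and 5289 of 5589, or 2.16% to 94.6%. No enzyme gene was in all 4 lists under any of these settings. With the start of the gene body alone, however, Aldh1a2 and Aldh1a3 were in 3 lists each, as many as Rarg and more than Rara or Rarb. With every start counted, both synthesis genes lacked a start summit in wild-type replicate 1 alone. The receptors Rara, Rarb and Rarg have 8, 2 and 6 annotated starts. Aldh1a2, Aldh1a3, Cyp26a1 and Cyp26b1 have 1, 5, 1 and 2. In bulk tissue, fewer cells with an open start and less accessibility per cell cannot be told apart. Of the 9 genes, 0 lacked a start summit in every list, against 34.5% of all protein-coding genes. With equal lists 1 did, with the stricter score 3 and with the start of the gene body alone 2. The 34.5% does not apply to these settings. For the start of the gene body, the share of genes in no list was 92.8%, 51.7%, 5.19% and 1.16% in the same 4 classes, from the lowest CpG content. For equal lists and the stricter score it was not computed. Stop cassette replicates 1 and 2 and wild-type replicate 2 each held 8 of the 9 starts. Wild-type replicate 1, the shortest list, held 5. The corresponding shares of all protein-coding genes were 61.5%, 64.5%, 61.6% and 59.1%.

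**Figure D1:**
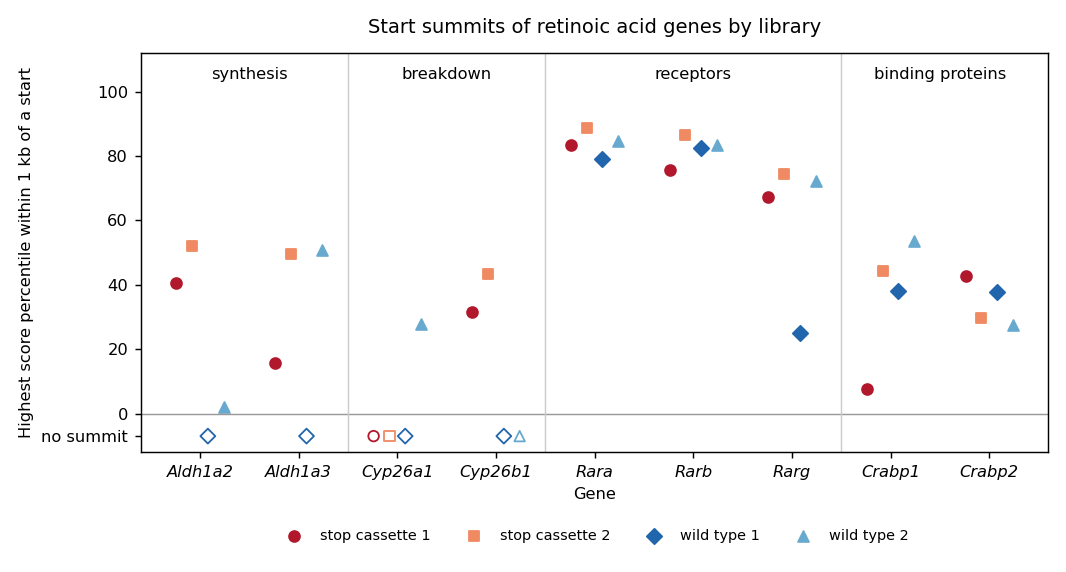
Highest score percentile among summits within 1 kb of any annotated start (vertical axis, percentile within the library's own list) for the 9 genes, ordered by role, in each of the 4 libraries (1 symbol each). Open symbols on the lower line mark libraries with no summit. Rara and Rarb sit between the 75.6 and 88.6 percentiles in all libraries, and the 4 enzyme genes reach at most the 51.9 percentile.

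The synthesis genes had weak start summits in 3 of 4 lists. Aldh1a2 encodes the main retinaldehyde dehydrogenase of the early embryo. Its start (ENSMUSG00000013584.5, chr9:71063596-71144050, plus strand) had a best summit at the 40.7 and 51.9 percentiles in stop cassette replicates 1 and 2, none in wild-type replicate 1 and one at the 1.96 percentile in wild-type replicate 2. Both stop cassette values lie above the single wild-type value, with a wild-type library missing. Aldh1a3 (ENSMUSG00000015134.8, chr7:73535778-73572403, minus strand), a second enzyme of the same kind, had its best summit at the 15.7 and 49.6 percentiles with the cassette, none in wild-type replicate 1 and one at the 50.7 percentile in wild-type replicate 2. Here the genotypes overlap. The 4 other annotated Aldh1a3 starts lie inside the gene. The 3 of them farthest in had no summit in any list.

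Within 50 kb of the synthesis genes, higher-ranked summits lay away from their starts. For each gene a leading distal region is given: of the regions over 1 kb from any annotated start, those held by the most lists were taken, and the one with the highest mean percentile among them. Regions held by fewer lists can have a higher mean. The leading distal region of Aldh1a2 was intergenic and 26987 bp upstream (chr9:71036342-71037239). It was held by all 4 lists, at the 69.8 and 82.4 percentiles with the cassette and the 31.7 and 60.9 percentiles in wild type. The start of Aqp9, a water and glycerol channel gene, is closer to it, at 20120 bp. The matching region of Aldh1a3 was 38131 bp downstream of the gene's start (chr7:73534016-73534522), also in all 4 lists, at the 75.8, 81.1, 80.2 and 26.3 percentiles in the order used above. It lay 1036 bp before the start of Lrrk1, a kinase gene, so it is nearer to that gene than to the Aldh1a3 start. In wild-type replicate 2 this region ranked below the best summit at the Aldh1a3 start, which stood at the 50.7 percentile. A second Aldh1a3 region in all 4 lists was intergenic and 22716 bp upstream, at percentiles from 2.28 to 70.9.

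The breakdown genes had the fewest accessible starts. Cyp26a1 (ENSMUSG00000024987.5, chr19:37772298-37776018, plus strand), which encodes a retinoic acid hydroxylase, had a start summit in wild-type replicate 2 alone, 113 bp after the start. The whole window of 50 kb on either side of this gene held 5 and 5 summits in the stop cassette lists, 0 in wild-type replicate 1 and 4 in wild-type replicate 2. Cyp26c1, the neighbouring gene of the same family, had no start summit in any list. The leading distal region of this window, held by 3 lists, lay 29417 bp upstream, inside an intron of Exoc6, at the 87.2, 47.8 and 20.7 percentiles in stop cassette replicates 1 and 2 and wild-type replicate 2. The start nearest to that region is that of Cyp26c1, at 17190 bp. A region 4742 bp upstream of Cyp26a1, in a coding exon of Cyp26c1 and at the 68.9 percentile, was in stop cassette replicate 2 alone.

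Cyp26b1 encodes the hydroxylase of the distal limb bud. Of its 2 annotated starts (ENSMUSG00000063415.5, chr6:84521938-84543740, minus strand), that of the longer transcript had no summit in any list. The start of the shorter one, Cyp26b1-202, had best summits at the 31.7 and 43.4 percentiles in stop cassette replicates 1 and 2 and none in either wild-type list. Of the 9 genes it was the single one with a start summit in the 2 mutant libraries and not in wild type, a pattern found in 1.03% of protein-coding genes. The opposite pattern was found in 0 of the 9 and in 0.0537% of protein-coding genes. When every list was cut to its strongest 51701 summits, none held a summit there, and with a start distance of 2 kb wild-type replicate 2 held one as well. That summit belongs to a region between the 2 starts (chr6:84540177-84540714), 1831 bp upstream of Cyp26b1-202, which ranked at the 51.1 and 69.2 percentiles with the cassette and the 61.9 percentile in wild-type replicate 2. The stop cassette-specific region is shown because it is the one region at a member's start that separated the genotypes. Its 150 bases around the strongest summit are on the plus strand, with 7 capitals centred on that summit.
Cyp26b1, chr6:84538995-84539144, plus strand: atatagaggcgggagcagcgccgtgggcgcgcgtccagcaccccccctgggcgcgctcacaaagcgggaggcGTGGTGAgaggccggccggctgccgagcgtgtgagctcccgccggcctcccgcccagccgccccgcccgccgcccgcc

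The receptor genes had the highest-ranked starts of the set in 3 of the 4 lists, and at each gene some annotated starts had a summit and others had none. In wild-type replicate 1, Rarg ranked below Crabp1 and Crabp2. Rara (ENSMUSG00000037992.9, chr11:98789132-98836256, plus strand), the most broadly expressed receptor of the family, had best summits at the 83.5 and 88.6 percentiles with the cassette and the 79.2 and 84.6 percentiles in wild type. They lay 103 to 135 bp before the start of Rara-002. The group means of 86.1 ± 3.62 and 81.9 ± 3.79 (SD, n = 2 each) differed by 4.20 points, about as much as the libraries within a group (exact permutation p = 0.667). The outermost start, that of Rara-003, had a summit in stop cassette replicate 2 alone, at the 10.1 percentile. The inner start of Rara-004, near the DR5, had best summits at the 78.2, 69.1 and 58.5 percentiles in 3 lists and none in wild-type replicate 1.

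Rarb encodes a receptor whose own transcription is a standard readout of retinoic acid. Its gene (ENSMUSG00000017491.7, chr14:17263356-17651381, minus strand) has 2 separate coding starts. The outer start, shared by Rarb-201 and Rarb-203, had no summit within 1 kb in any list. The inner start of Rarb-202, with the DR5 before it, was held by all 4 lists, with best summits 188, 148, 93 and 83 bp upstream. The group means were 81.1 ± 7.74 with the cassette against 82.8 ± 0.663 without it (SD, n = 2 each), an exact permutation p of 1. The wild-type values fall between those of the mutant. Such a split is common: of 3105 protein-coding genes with coding starts at least 10 kb apart, 66.4% had one start held by all 4 lists and another by none.

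Rarg (ENSMUSG00000001288.8, chr15:102065369-102087948, minus strand), a receptor known from cartilage and skin, had 2 open start areas. The inner coding start, that of Rarg-002, was held by all 4 lists, at the 62.8, 74.5, 25.0 and 72.3 percentiles. The outer start was held by 3, at the 67.4 and 74.1 percentiles with the cassette, none in wild-type replicate 1 and the 42.1 percentile in wild-type replicate 2. Taking the best start summit per list, the group means were 70.9 ± 4.98 and 48.7 ± 33.5 (SD, n = 2 each), with an exact permutation p of 0.667. Wild-type replicate 1 alone is low, and without it the difference of 22.3 percentile points became -1.40.

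**Figure D2:**
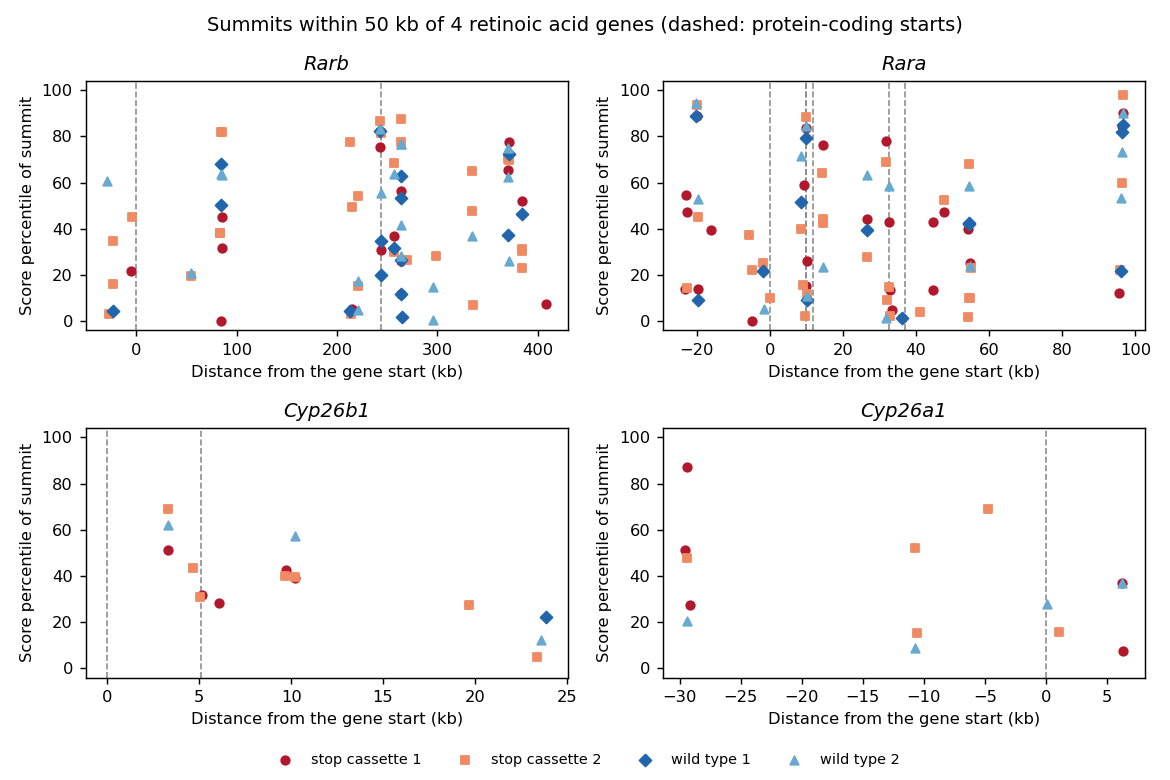
Score percentile (vertical axis) of each summit within 50 kb of Rarb, Rara, Cyp26b1 and Cyp26a1 against its distance in kb from the outermost start of the gene, positive in the direction of transcription (horizontal axis), by library. Dashed lines mark protein-coding starts. No summit stands on the outer Rarb start, all 4 libraries meet at the inner one, and the Cyp26a1 window holds no summit of wild type 1.

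The binding proteins had weak start summits in all lists, and lost this call with equal lists and with the stricter score, as given above. CRABP1 and CRABP2 carry retinoic acid through the cytoplasm, the second towards the receptors in the nucleus. Crabp1 (ENSMUSG00000032291.8, chr9:54612555-54620917, plus strand) had its best start summit at the 7.55, 44.4, 38.0 and 53.7 percentiles in stop cassette replicates 1 and 2 and wild-type replicates 1 and 2. The means were 26.0 ± 26.1 and 45.8 ± 11.1 (SD, n = 2 each), with an exact permutation p of 0.667. The difference of -19.9 points became -1.41 once stop cassette replicate 1 was left out. Crabp2 (ENSMUSG00000004885.5, chr3:87752588-87757298, plus strand) had summits at its coding start at the 28.4, 29.7, 37.9 and 27.4 percentiles. A further summit 402 bp after an inner non-coding start was present in stop cassette replicate 1 alone, at the 42.8 percentile.

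Among the 12860 protein-coding genes with a start summit in all 4 lists, the best start summit had a median percentile from 86.0 to 93.7 in the 4 libraries. Ranked among these genes by the mean over the libraries, Rara stood at 33.4% and Rarb at 29.2% from the weakest. Rarg stood at 8.45%, Crabp1 at 1.05% and Crabp2 at 0.890%. Thus all 5 genes lay below the middle of the genes with an open start.

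Crabp2 had its strongest region outside the gene. An intergenic region 12344 bp after its start and beyond its end (chr3:87764346-87765260) ranked at the 92.8 and 96.4 percentiles with the cassette and the 83.6 and 93.6 percentiles in wild type. Its mean percentile, 91.6, was the highest of the 15 distal regions held by all 4 lists in the 9 windows. The closest annotated start is that of the inner Crabp2 transcript, 8866 bp away. It is printed as the strongest distal element of the set, with 7 capitals centred on the strongest summit of each of the 3 lists whose summit falls in this stretch.
Crabp2, chr3:87764857-87765006, plus strand: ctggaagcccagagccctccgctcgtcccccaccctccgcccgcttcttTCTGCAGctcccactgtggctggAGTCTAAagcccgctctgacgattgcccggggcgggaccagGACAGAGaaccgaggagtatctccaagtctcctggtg

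Other distal regions in all 4 lists lay inside Rarb. The leading one was an intron region 20731 bp after the inner start (chr14:17386501-17388091), at the 56.6, 87.4, 62.9 and 76.7 percentiles. A further 4 lay in introns of the gene, the outermost of them 85032 bp after the outer start at the 45.0, 81.9, 68.0 and 63.7 percentiles. The distal region of Rara in all 4 lists was in an intron, 6011 bp before Rara-004, at the 44.3, 28.0, 39.4 and 63.5 percentiles. Another, 14417 bp after the gene start, was in 3 lists with a higher mean, at the 76.5 and 64.3 percentiles with the cassette and the 23.3 percentile in wild-type replicate 2. The one of Rarg in all 4 lists covered a coding exon of Itgb7, an integrin gene, and ranked at the 83.8, 91.3, 38.0 and 70.2 percentiles. The one of Crabp1 in all 4 lists was intergenic, 19502 bp downstream of the start, at the 7.55, 74.5, 16.0 and 63.1 percentiles. Its mean of 40.3 was below that of 4 distal Crabp1 regions held by fewer lists, at 50.3 to 56.8.

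Summits of all lists were joined into regions where they lay at most 500 bp apart. The 9 windows held 110 regions, of which 19 were at a start of the gene itself, 21 at a start of another gene and 70 were distal. All 4 lists held 33 regions, or 30.0%, where the share over all 74669 regions of the genome was 32.0%. By role, all 4 lists held 6 of 15 regions of the synthesis genes, 0 of 12 of the breakdown genes, 16 of 56 of the receptors and 11 of 27 of the binding proteins. The counts at Crabp2, Rarg and Rara include starts of neighbours, 8, 5 and 3 regions, such as those of the Hdgf, Mfsd5 and Cdc6 genes.

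**Figure D3:**
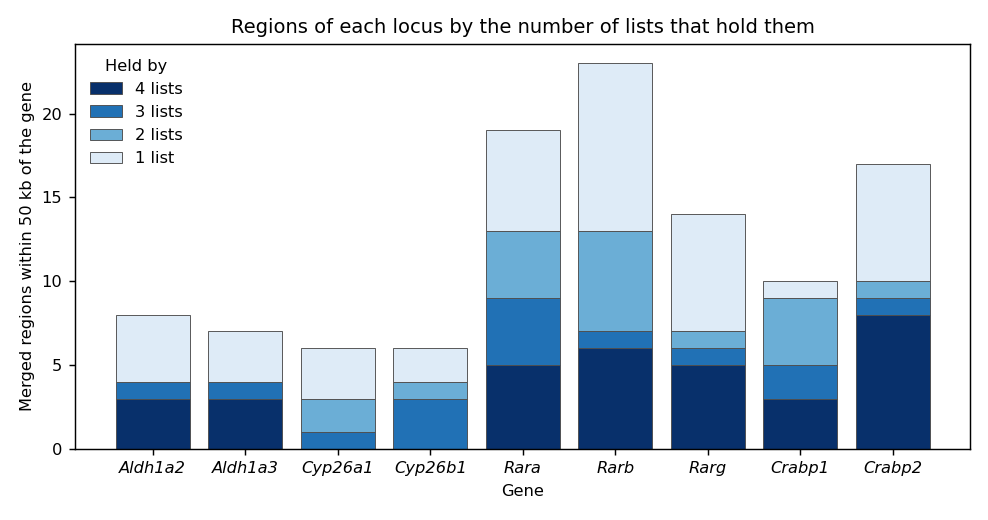
Number of merged regions within 50 kb of each gene (vertical axis, from 0), stacked by how many of the 4 lists hold them. Crabp2 has 8 regions in all 4 lists and the Cyp26a1 and Cyp26b1 windows have 0.

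Per length of window, Crabp2 had 16.2 regions per 100 kb, Rara 12.9 and Rarg 11.4, which placed them at 99.1%, 96.5% and 93.7% among all protein-coding genes from the sparsest. Rarb, with the longest window, had 4.71 regions per 100 kb, and Aldh1a2 had 4.43, both close to the median gene at 4.48. Cyp26a1 and Cyp26b1 had 5.78 and 4.93 regions per 100 kb, above that median, yet 0 in all 4 lists, where the median gene had 1.76 per 100 kb. Other genes also had 0, and with tied genes sharing their mean rank both stood at 9.57% from the sparsest.

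At each enzyme gene, the start held by the most lists was not poor in CpG, the dinucleotide that goes with constitutively open starts in mammals. The ratio of observed to expected CpG within 500 bp of the start was 0.929 at Aldh1a2, 0.847 at Cyp26b1-202, 0.727 at Cyp26a1 and 0.684 at the outermost Aldh1a3 start. The ratio was 0.770 at the inner Rarb start, 0.692 at Rara-002, 0.631 at Rarg-002, 0.617 at Crabp1 and 0.486 at the coding Crabp2 start. Protein-coding genes were split by this ratio into 4 classes of equal size, from class 1 with the lowest ratios to class 4 with the highest. A start summit in all 4 lists was present in 2.16% of class 1, 33.0% of class 2, 86.7% of class 3 and 94.6% of class 4. Genes were classed, and their summits counted, by the start of the gene body, and the single starts are placed by the same bounds. Aldh1a2 and Cyp26b1-202 belong to class 4 and Cyp26a1 and Aldh1a3 to class 3, with 3, 2, 1 and 3 lists. The outer Rarb start, with a ratio of 0.0777, belongs to class 1, and that of the longer Cyp26b1 transcript, 0.247, to class 2. Both are gene body starts, so Rarb and Cyp26b1 as genes are classed by them. The inner Aldh1a3 starts, with ratios from 0.262 to 0.422, belong to class 2 as well.

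**Figure D4:**
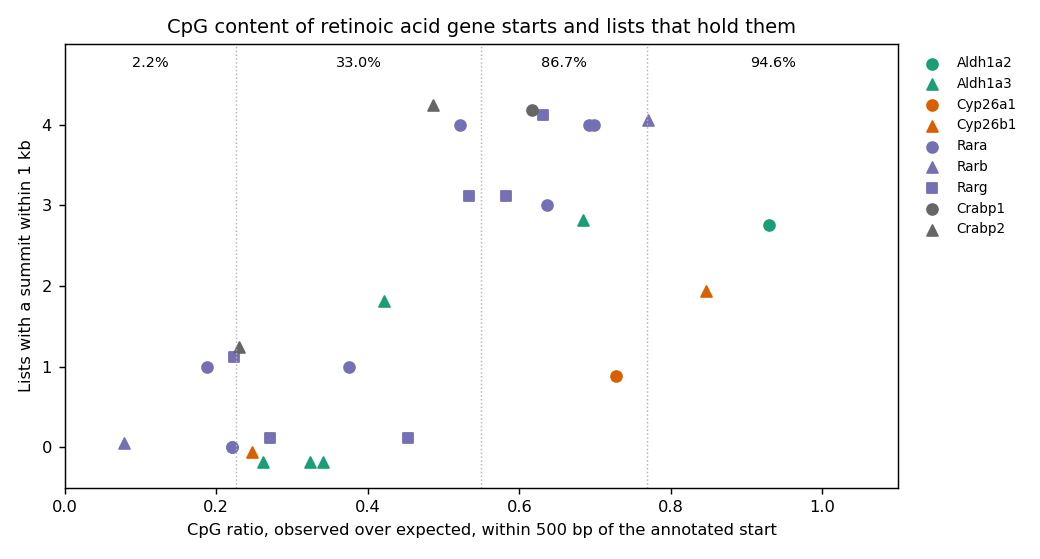
Lists with a summit within 1 kb (vertical axis, whole numbers from 0 to 4, shifted slightly by gene so that points do not cover each other) against the CpG ratio of each annotated start of the 9 genes (horizontal axis). Dotted lines divide all protein-coding genes into 4 classes of equal size by the start of the gene body. The percentage over each class is the share of its genes with a summit at that start in all 4 lists. The points are all annotated starts, inner and non-coding ones included. Aldh1a2, Cyp26b1-202 and Cyp26a1 lie to the right with 3, 2 and 1 lists.

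Of the 18 other pathway genes, 14 had a start summit in all 4 lists, against the 57.5% of all protein-coding genes given above. Rdh10, which makes retinaldehyde, stood at the 81.0, 88.2, 92.6 and 79.2 percentiles, and Dhrs3, which reduces it back, at the 73.0, 90.5, 80.3 and 78.3 percentiles. Of the RXR partners, Rxrb stood at percentiles from 81.2 to 91.2, Rxrg from 77.2 to 86.4 and Rxra from 38.7 to 89.3. The corepressor Ncor1 ranged from 87.3 to 93.4, the cofactor Nrip1 from 91.8 to 93.9, and Fabp5, a fatty acid and retinoic acid carrier, from 84.6 to 94.6. Transport genes were lower or incomplete: Rbp4 from 31.7 to 80.0, Stra6 from 13.0 to 63.7, and Lrat, which stores vitamin A as esters, in 3 lists. Aldh1a1 had a start summit in stop cassette replicate 2 alone, and Aldh1a7 in all 4, from 7.55 to 89.9. Meis1 and Meis2, transcription factors of the proximal limb known as retinoic acid targets, ranged from 21.5 to 77.7 and from 11.9 to 53.2.

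The start pattern most like that of each gene was sought among the genes of both lists with a start summit in all 4 lists, 18 besides the gene itself, by the mean absolute difference in percentile over the 4 lists. For Rara it was Rarb, at 3.62 points, and for Rarb it was Rxrg, at 2.52. For Rarg it was Meis1, at 7.39, for Crabp1 Stra6, at 9.51, and for Crabp2 Meis2, at 18.9.

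Between the genotypes, the 9 windows held 127 and 152 summits with the cassette and 64 and 100 in wild type. The group means were 139.5 ± 17.7 and 82.0 ± 25.5 (SD, n = 2 each). The library counts of the genotypes did not overlap, which gives the smallest p-value the design allows (exact permutation p = 0.333). The stop cassette lists are longer as a whole, and as a share of the list the windows held 0.161% (95% Wilson interval 0.135% to 0.191%) and 0.141% (0.120% to 0.165%) with the cassette and 0.124% (0.0970% to 0.158%) and 0.146% (0.120% to 0.178%) in wild type. These intervals cover counting error only. The share differed by 0.0159 percentage points (exact permutation p = 0.667), the groups overlap, and with all lists cut to one length the difference in summits was -4.

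By gene, the summit counts were higher with the cassette, with no overlap between the genotypes, at 7 of the 9 windows, as they were for 46.9% of all protein-coding genes. At Rara they were 26 and 30 against 13 and 15, at Aldh1a2 7 and 11 against 3 and 6, at Aldh1a3 11 and 10 against 4 and 6, and at Cyp26b1 5 and 7 against 1 and 3. Cyp26a1, Rarg and Crabp2 behaved likewise, and each of the 7 gave an exact permutation p of 0.333. With the lists cut to one length the difference was 0 at Rara and Aldh1a3, 0.5 at Cyp26b1, 1 at Aldh1a2 and Cyp26a1, 3 at Rarg and -0.5 at Crabp2. At Rarb (15 and 30 against 16 and 19) and Crabp1 (10 and 14 against 6 and 11) the genotypes overlap.

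Of the 110 regions, 8 were stop cassette-specific, meaning present in replicates 1 and 2 of the mutant and absent from wild type. That is 7.27%, against 10.0% of all regions. The reverse was found for 0 of the 110, against 0.313%. The window of Rara held 3 of the 8, and those of Cyp26b1, Rarb, Rarg, Crabp1 and Crabp2 held 1 each. They ranked low or in the middle: the highest mean percentiles were 53.4, in an intron of Wdr61 near Crabp1, and 52.7, in an intron of Hdgf near Crabp2. The region inside Rarb was 27951 bp upstream of the inner start, at the 5.46 and 49.6 percentiles. With the lists cut to one length, 26 of 76 regions were in all 4, 4 were stop cassette-specific and 5 wild type-specific, where the shares of all regions were 38.3%, 5.22% and 2.24%. With scores of at least 5.83, the counts were 15, 7 and 0 of 63, where the shares of all regions were 31.7%, 13.3% and 0.143%.

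The median percentile of the summits in the 9 windows was 40.7 and 42.9 with the cassette and 38.3 and 53.6 in wild type. The means were 41.8 ± 1.57 and 45.9 ± 10.9 (SD, n = 2 each), an exact permutation p of 1, and wild-type replicate 1 is the lowest and replicate 2 the highest. Over the 5 genes with a start summit in all lists, the mean start percentile was 55.4 and 64.7 with the cassette and 52.5 and 64.3 in wild type, with group means of 60.1 ± 6.62 and 58.4 ± 8.32 (SD, n = 2 each; exact permutation p = 0.667). In both measures the libraries of a genotype differed by more than the genotypes did, except for the median of the stop cassette lists.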

How the data were processed

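ATAC-seq summits of 4 libraries were analysed. Bowtie2 2.2.6 and Picard are named in the submitters' processing notes, with build mm9. Peak names in the deposited lists record the removal of duplicate and mitochondrial reads and a mapping quality of 30. The peak caller, its settings and any shift for the transposase are not given in the sources used here. The deposited score behaves as −log10 of a q-value: its lowest value is 1.30 to 1.31, which is 0.05.

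GENCODE M1 (NCBIM37, the same build) gave the genes, and 0 summits lay beyond the end of the 21 chromosomes compared. Analyses ran in Python 3.11.15 with numpy 2.4.6 and scipy 1.17.1. Summits, by column 3 of the lists, were taken within 1 kb of any annotated transcript start and within 50 kb of the gene body. The farthest start summit inside was 999 bp away (Rara, 1.40 percentile) and the nearest outside 1004 bp (Rara, 1.31 percentile). Extending summits by 250 bp and merging gave regions. Tied scores share a percentile. Exact permutation tests were two-sided. Start counting, tested on simulated lists of 400 genes, recovered 200 of 200 starts planted in all lists and 200 of 200 planted in the stop cassette lists only. The planted summits lay inside the 1 kb distance and the other summits on a separate simulated chromosome. This checks the counting code, and neither false calls nor unequal list lengths.

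The 9 genes, the second list and the tests were chosen with earlier results of these data known. The named regions are, for each gene, the start region with the highest mean percentile, the distal region with the highest mean percentile among those held by the most lists, and all genotype-specific ones; a few more distal regions were added after their values were seen. The best start region of Crabp2 by mean percentile, over the lists that hold it, is the one held by a single list. The 10 kb separation of starts, the CpG ratio and the choice of printed bases were set after the values were seen. The marker Spi1 was matched through its older symbol. Some genes of the second list are not reported here by name.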

Additional observations from a re-analysis of the deposited data

How the results depend on the processing

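Depth is unknown, so list length limits each comparison between genotypes. Values are differences, stop cassette minus wild type, or counts of regions. With all libraries kept and the replicate block left aside, 57 alternative differences held their direction, 14 reversed and 3 became 0: summits at Rara and Aldh1a3 with equal lists and at Cyp26b1 with the stricter score. Of the region counts, 10 stayed within 1.5 times the reported one and 11 moved further. The cause was not tested.

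With lists of equal length, these differences reversed: the mean start percentile to -4.13, the median percentile to 0.992, genes with a start summit to -2, the share of the list to -0.00774 percentage points, summits in the windows to -4, the Rara start to -3.83, and summits at Crabp1, Crabp2 and Rarb to -3.5, -0.5 and -5.5. The stricter score turned the share to -0.00304 and the Rarb start to 2.08. A start distance of 500 bp turned the mean start percentile to -3.45. The start of the gene body alone turned it to -11.7 and the Crabp2 start to -3.57. This mean covers only genes with a start summit in all lists of a setting, so its genes change. They number 5 as reported, 3 with equal lists, 2 with the stricter score, 4 at 500 bp and 2 with the gene body start. At 500 bp Rarg drops out, and the differences of the remaining genes are the same as reported.

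Regions in all 4 lists numbered 15 with the stricter score, 20 with flanks of 20 kb and 51 with flanks of 100 kb. Stop cassette-specific regions numbered 4 at equal length, 4 with 20 kb, 13 with 100 kb, 19 with an extension of 100 bp and 16 with a reciprocal overlap of 50%. Wild type-specific regions numbered 5 at equal length, 2 with 100 bp and 1 with reciprocal overlap.

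Leaving out each library in turn gave -2.99 to 7.58 for the mean start percentile, -11.8 to 3.52 for the median percentile, 0 to 3 for genes with a start summit, 0.00473 to 0.0270 for the share and 39.5 to 75.5 for summits. Without wild-type replicate 1, Aldh1a2 and Aldh1a3 join the genes of the mean start percentile. Its stop cassette value is then 54.2 in place of 60.1. Regions in all remaining lists ranged from 33 to 45, stop cassette-specific ones from 9 to 32 and wild type-specific ones from 0 to 5. The Crabp2 start ranged from -2.95 to 10.2, with -1.61 without wild-type replicate 2, the Rarb start from -7.24 to 3.71, the Rarg start from -1.40 to 46.0, and summits at Rarb from -2.5 to 12.5. The extremes come from stop cassette replicate 1 or 2 for Crabp2, Rarb and the summits at Rarb, and from wild-type replicate 1 or 2 for Rarg.

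The labels number the libraries 1 and 2 in both genotypes. With the number as a replicate block, the differences are the same by construction (57.5 for summits in the windows) and the exact paired permutation test cannot give a p under 0.5. Deviations of same-numbered libraries correlated at 0.127 over 74669 regions, with 2 pairs only, so the numbers were not taken to pair the libraries.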
